A study of Mus musculus with 12 samples.

Results

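The genes described here are 10 genes that mark T cells and natural killer (NK) cells, the lymphocytes that recognise antigen or kill target cells: Cd3e, Cd3d, Cd3g, Cd4, Cd8a, Lck, Cd69, Nkg7, Gzma and Klrd1. They were taken by symbol from the 52636 genes of the count tables, and all 10 passed the filter on low counts, as did 21440 genes in all. Their levels were read in 12 RNA-seq libraries of lung lymphatic endothelial cells (LECs), the cells that line lymphatic vessels. The cells were sorted from Prox1-EGFP mice, in which a green reporter follows Prox1, the transcription factor that sets lymphatic identity, as live, lineage-negative, EpCAM-negative, CD31-positive and GFP-positive cells. Mice breathed cigarette smoke (CS) in a whole-body system or room air (RA), starting at 6 weeks of age, for 8 weeks (acute) or for at least 24 weeks (chronic). There were 2 acute RA libraries (F and M), 2 acute CS libraries (F and M), 3 chronic RA libraries (F, M1 and M2) and 5 chronic CS libraries (F, M1, M2, M3 and M4), where F and M stand for the sex in the labels. Each acute library pooled 2 to 5 mice and each chronic library held 1 mouse, so an acute library averages over animals and a chronic library does not. Total counts were 18821438 to 56998590 per library. The labels call the acute groups 8 weeks old, which the methods give as the length of exposure, and the chronic groups aged.

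T cells read antigen through a receptor made of an alpha and a beta chain, or a gamma and a delta chain, each built by joining a variable segment to a constant one. The receptor reaches the surface only with the CD3 chains and passes its signal on through the kinase Lck, which the coreceptors CD4 and CD8 bring to it. CD69 appears on lymphocytes soon after activation and holds them in tissue. NK cells lack the T cell receptor and CD3 complex at their surface and share a killing programme with cytotoxic T cells, which includes granzyme A and the granule protein NKG7. CD94, encoded by Klrd1, pairs with NKG2 proteins as a receptor for non-classical MHC class I. In the lung, lymphatic vessels are the route by which T cells leave the tissue for the draining lymph nodes, so LECs and T cells lie close together. Lineage cocktails for mouse cells commonly hold an antibody to CD3, and a gate of this kind would remove cells with CD3 on their surface.

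The 3 CD3 genes lie together on chromosome 9, and they are shown first because their counts moved closely together in the acute CS libraries. In GRCm38 with the GENCODE M21 annotation, Cd3g (ENSMUSG00000002033, minus strand, 44969572 to 44980431) and Cd3d (ENSMUSG00000032094, plus strand, 44981786 to 44987339) start 1355 bases apart and run away from each other. Cd3e (ENSMUSG00000032093, minus strand, 44998740 to 45009627) lies 11401 bases beyond the end of Cd3d, and the cluster spans 40056 bases. The 250 bases before each RefSeq start (GRCm38.p6) are printed 5′ to 3′ on the gene's own strand. Capitals mark the matches to 5 short motifs on either strand: RUNX (TGTGGT), ETS (AGGAAG), E-box (CAGNTG), AP-1 (TGACTCA) and TCF/LEF (CTTTGA).
Cd3e, chr9:45009612-45009861, minus strand: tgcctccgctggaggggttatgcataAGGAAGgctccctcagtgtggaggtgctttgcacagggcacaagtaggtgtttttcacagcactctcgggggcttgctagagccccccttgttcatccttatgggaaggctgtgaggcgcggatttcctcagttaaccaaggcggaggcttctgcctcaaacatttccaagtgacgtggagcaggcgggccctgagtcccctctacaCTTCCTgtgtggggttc
Cd3d, chr9:44981536-44981785, plus strand: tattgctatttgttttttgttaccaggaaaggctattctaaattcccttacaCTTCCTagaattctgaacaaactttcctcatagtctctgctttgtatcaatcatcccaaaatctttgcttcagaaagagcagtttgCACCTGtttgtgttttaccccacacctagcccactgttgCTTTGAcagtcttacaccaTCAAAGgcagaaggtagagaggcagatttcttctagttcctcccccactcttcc
Cd3g, chr9:44980432-44980681, minus strand: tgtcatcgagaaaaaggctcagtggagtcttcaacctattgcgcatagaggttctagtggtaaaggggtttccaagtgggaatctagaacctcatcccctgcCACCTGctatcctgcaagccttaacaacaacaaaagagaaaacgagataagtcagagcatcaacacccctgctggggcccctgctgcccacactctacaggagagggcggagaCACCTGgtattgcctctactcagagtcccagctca
The Cd3e window held 2 ETS matches, which began 224 and 17 bases before the start. The Cd3d window held 1 ETS match, 1 E-box and 2 TCF/LEF matches, and the Cd3g window held 2 E-boxes. The 3 windows therefore shared no motif among these 5 in common. RefSeq gave 8 windows for 7 of the 10 genes (2 of them for Lck) and none for Cd4, Cd69 or Klrd1. Of these 8 windows, 3 held RUNX, 5 held ETS, 5 held an E-box, 1 held TCF/LEF and 0 held AP-1. Across 32851 promoter windows of the same length the shares were 14.0% for RUNX, 29.5% for ETS, 44.8% for an E-box, 13.8% for TCF/LEF and 4.46% for AP-1. A match is a run of letters, not a bound site, and the windows have no measure of binding in these data.

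After acute CS, transcripts of the CD3 chains, of the kinase Lck and of Cd69 were higher in LEC libraries than after RA. In the plot of the 10 genes by library, both acute CS libraries stood above both acute RA libraries for each of the 10 genes. The same held for 27.4% of all genes tested, since 2 libraries against 2 separate easily. Of the 10 genes, 5 rose by edgeR's quasi-likelihood test at an adjusted p below 0.05: Cd3e, Cd3d, Cd3g, Lck and Cd69. Among all genes tested, 2.75% rose. The 10 genes were chosen with earlier results of these data known, so setting them against this share is not an independent test. An unadjusted p below 0.05 was reached by 8 of the 10 genes and 15.7% of all genes. The median log2 fold change was 3.53 over the 10 genes and 0.04 over all genes. In bulk libraries, a change in the number of cells of a type and a change in RNA per cell cannot be told apart.

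**Figure D1:**
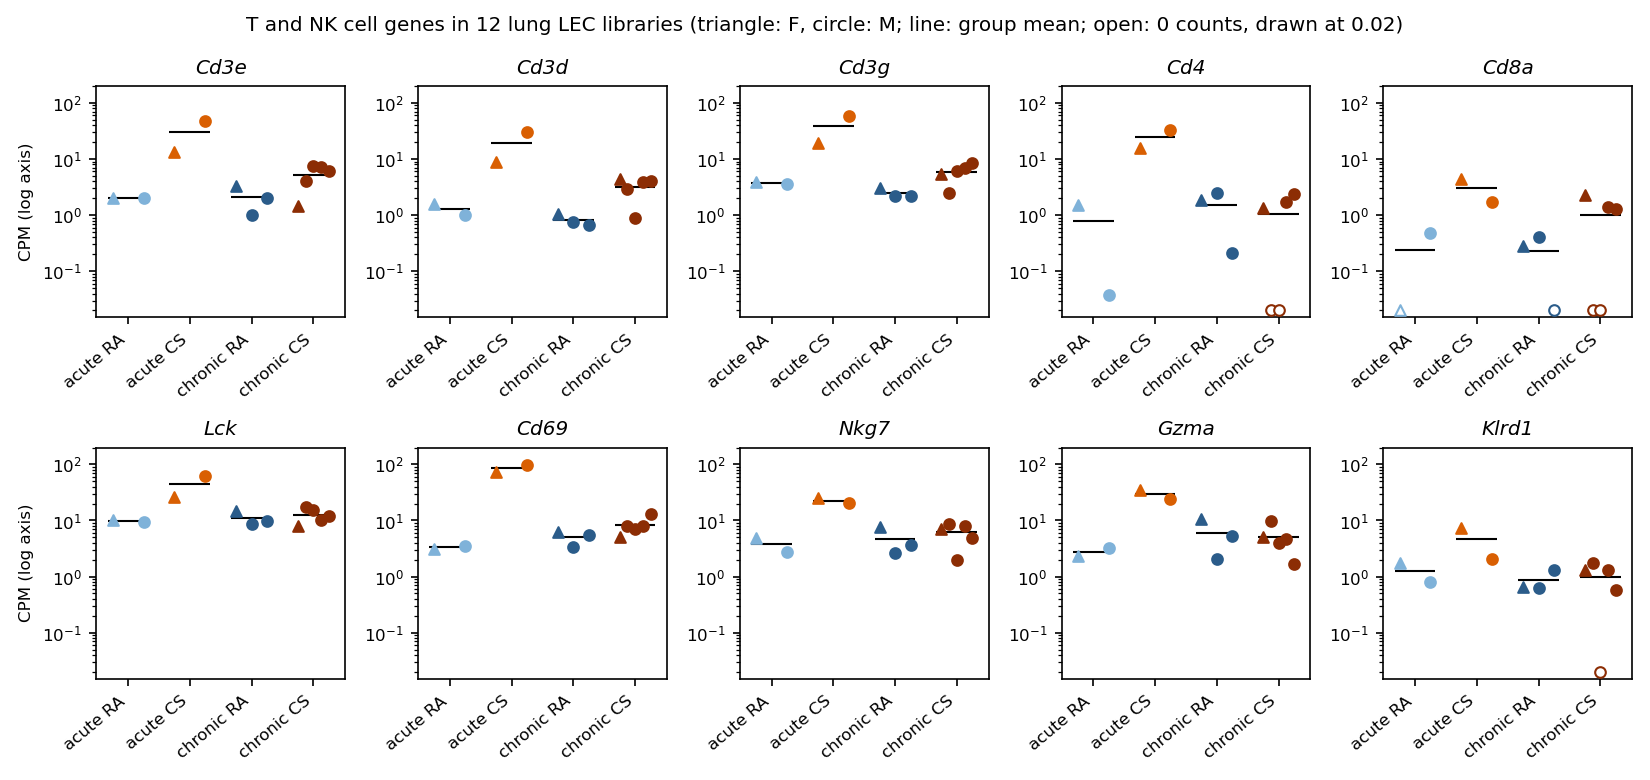
Level of each of the 10 genes, in CPM (counts scaled to library size, with TMM factors) on a log axis, in 12 libraries of 4 groups; triangles are F and circles are M libraries, the line is the group mean and open symbols are libraries with 0 counts, drawn at 0.02. Both acute CS libraries lie above both acute RA libraries in every panel, and the chronic groups overlap in every panel.

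Among the CD3 chains, Cd3e, the epsilon chain, was at 2.04 CPM in both acute RA libraries, F and M, and at 13.5 and 47.2 CPM in acute CS F and M. It rose by a log2 fold change of 3.89 ± 0.85 (SE; adjusted p 0.0296, edgeR). The 2 acute RA libraries were nearly equal, and the spread came from acute CS, where M was 3.50 times F. Cd3d, the delta chain, was at 1.59 and 1.0 CPM in acute RA F and M and at 9.01 and 30.3 CPM in acute CS F and M (log2 fold change 3.92 ± 0.80, SE; adjusted p 0.0231, edgeR). Cd3g, the gamma chain, was at 3.87 and 3.58 CPM in acute RA and at 19.0 and 59.5 CPM in acute CS (log2 fold change 3.40 ± 0.62, SE; adjusted p 0.0142, edgeR). The 3 chains therefore kept nearly the same step between the 2 acute CS libraries, 3.13 to 3.50 times higher in M.

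Lck, the kinase that starts T cell receptor signalling (chromosome 4, 129548344 to 129573641, minus strand), was not near 0 in any library. It was at 10.3 and 9.31 CPM in acute RA F and M and at 26.2 and 61.6 CPM in acute CS F and M. It rose by a log2 fold change of 2.16 ± 0.46 (SE; adjusted p 0.0279, edgeR), the smallest of the 5 changes that passed. Cd69 (chromosome 6, 129267325 to 129275436, minus strand) was at 3.07 and 3.58 CPM in acute RA F and M and at 72.0 and 98.5 CPM in acute CS F and M. Its log2 fold change of 4.68 ± 0.46 (SE) had the lowest adjusted p of the 10 genes, 0.00166 (edgeR). The acute CS mean of Cd69 was 25.6 times the acute RA mean, and F and M stood close to each other, unlike the CD3 chains. Which cells held the Cd69 transcripts was not tested.

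The coreceptors had high values in acute CS that did not pass the test. Cd4, carried by helper and regulatory T cells and also by some mouse myeloid cells, was at 1.5 and 0.0378 CPM in acute RA F and M and at 15.6 and 33.5 CPM in acute CS F and M. The acute RA M library held only 2 Cd4 counts against 89 in F, and the log2 fold change of 4.98 carried an SE of 2.12 (adjusted p 0.28, edgeR). Cd8a, the coreceptor chain of cytotoxic T cells, was at 0 and 0.473 CPM in acute RA F and M and at 4.32 and 1.69 CPM in acute CS F and M (log2 fold change 3.66 ± 2.44, SE; adjusted p 0.551, edgeR). Cd4 thus exceeded Cd8a in both acute CS libraries, on a scale per gene length as well: mean FPKM, which is CPM divided by the exon length in kilobases, was 6.09 for Cd4 and 0.826 for Cd8a.

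The cytotoxic and NK genes were also higher in both acute CS libraries and missed the threshold. Gzma, which encodes granzyme A, was at 2.31 and 3.27 CPM in acute RA F and M and at 34.4 and 24.3 CPM in acute CS F and M (log2 fold change 3.39 ± 0.84, SE; adjusted p 0.0517, edgeR). Nkg7 was at 4.80 and 2.74 CPM in acute RA and at 24.7 and 20.3 CPM in acute CS (log2 fold change 2.57 ± 0.68, SE; adjusted p 0.0693, edgeR). Klrd1 was at 1.74 and 0.813 CPM in acute RA and at 7.36 and 2.04 CPM in acute CS (log2 fold change 1.88 ± 1.34, SE; adjusted p 0.595, edgeR). In acute CS these 3 genes and Cd8a were higher in F, whereas the CD3 chains, Cd4, Lck and Cd69 were higher in M. DESeq2 called Gzma and Nkg7 as well, which made 7 of the 10 genes.

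The acute calls depended on single libraries. Without acute CS M or without acute RA F, 1 of the 10 genes passed, Cd69, and without acute RA M none did, whereas all 5 passed without acute CS F. Without acute CS M the log2 fold changes of the CD3 chains were 2.35 to 2.80 (adjusted p 0.0673 to 0.14, edgeR) and that of Lck was 1.42 (adjusted p 0.157).

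**Figure D2:**
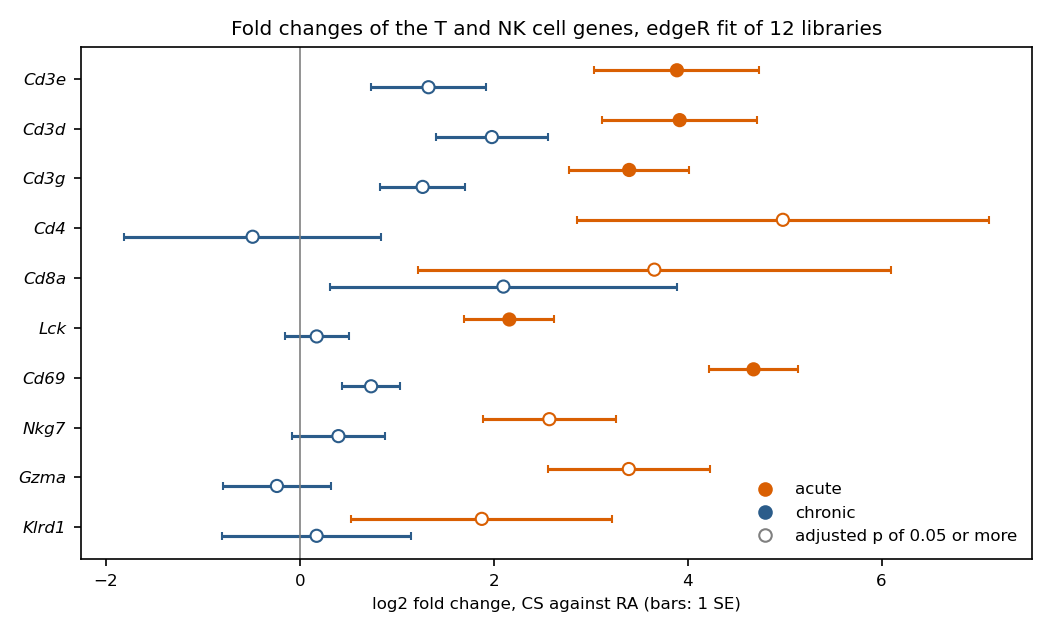
Log2 fold change of each gene, CS against RA, at the acute (orange) and chronic (blue) time points from the edgeR fit of 12 libraries; bars are 1 SE and open symbols have an adjusted p of 0.05 or more. The 10 acute values lie between 1.88 and 4.98 and the 10 chronic values between -0.49 and 2.10, and only acute values are filled.

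After chronic CS, none of the 10 genes passed the test, and the CD3 chains and Cd69 were the 4 genes with an unadjusted p below 0.05. edgeR called 0 of the 10 genes and 0.0% of all genes, and DESeq2 called Cd3d only. An unadjusted p below 0.05 was reached by 10.9% of all genes. The median log2 fold change was 0.57 over the 10 genes and 0.01 over all genes, with 8 values above 0. No gene of the 10 had every chronic CS library above every chronic RA library, as 3.92% of all genes did.

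Cd3e was at 3.26, 1.01 and 2.03 CPM in chronic RA F, M1 and M2, and at 1.47, 4.05, 7.52, 7.08 and 6.13 CPM in chronic CS F, M1, M2, M3 and M4 (log2 fold change 1.33 ± 0.59, SE; adjusted p 0.453, edgeR). Cd3d was at 1.03, 0.749 and 0.656 CPM in chronic RA and at 4.36, 2.91, 0.873, 3.92 and 4.0 CPM in chronic CS in the same order (log2 fold change 1.98 ± 0.58, SE; adjusted p 0.314, edgeR). Cd3g was at 3.04, 2.19 and 2.15 CPM in chronic RA and at 5.46, 2.47, 6.23, 6.93 and 8.43 CPM in chronic CS (log2 fold change 1.27 ± 0.44, SE; adjusted p 0.368, edgeR). For each chain 4 of 5 chronic CS libraries exceeded all 3 chronic RA libraries, and the exception was a different library each time: F for Cd3e, M2 for Cd3d and M1 for Cd3g. Summed over the 3 chains, the levels were 7.33, 3.94 and 4.83 CPM in chronic RA F, M1 and M2 and 11.3, 9.42, 14.6, 17.9 and 18.6 CPM in chronic CS F, M1, M2, M3 and M4. The sums did not overlap between the groups, and this is a description with no test. Of single genes tested, 3.92% had every chronic CS library above every chronic RA library.

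Cd69 was at 6.20, 3.31 and 5.42 CPM in chronic RA F, M1 and M2 and at 5.15, 8.06, 7.19, 8.08 and 12.8 CPM in chronic CS F, M1, M2, M3 and M4 (log2 fold change 0.74 ± 0.30, SE; adjusted p 0.424, edgeR). All but chronic CS F lay above chronic RA. Lck was at 14.9, 8.70 and 9.89 CPM in chronic RA and at 7.93, 17.1, 15.5, 10.3 and 12.3 CPM in chronic CS, with a log2 fold change of 0.17 ± 0.33 (SE). The interval of 1 SE around the Lck value includes 0, and the groups overlapped.

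The remaining 5 genes had overlapping groups at the chronic time point and no common direction. Nkg7 was at 7.52, 2.68 and 3.73 CPM in chronic RA F, M1 and M2 and at 7.14, 8.54, 2.0, 8.06 and 4.84 CPM in chronic CS F, M1, M2, M3 and M4 (log2 fold change 0.40 ± 0.48, SE). Gzma was at 10.5, 2.04 and 5.36 CPM in chronic RA and at 5.04, 9.99, 4.03, 4.70 and 1.67 CPM in chronic CS (log2 fold change -0.24 ± 0.56, SE). Its highest chronic value was in an RA library, and no chronic CS library lay above chronic RA F. Cd4 was at 1.85, 2.51 and 0.209 CPM in chronic RA and at 1.31, 0, 0, 1.69 and 2.33 CPM in chronic CS (log2 fold change -0.49 ± 1.33, SE). Cd8a was at 0.282, 0.403 and 0 CPM in chronic RA and at 2.31, 0, 0, 1.37 and 1.27 CPM in chronic CS (log2 fold change 2.10 ± 1.79, SE). Both coreceptors had 0 counts in chronic CS M1 and M2, 2 of the 3 libraries of that group with 18821438 to 22885446 total counts, while those libraries held 92 and 181 counts of Cd3e. Klrd1 was at 0.658, 0.634 and 1.31 CPM in chronic RA and at 1.31, 1.72, 0, 1.31 and 0.565 CPM in chronic CS (log2 fold change 0.17 ± 0.97, SE). For Cd4, Cd8a and Klrd1 the SEs of 0.97 to 1.79 on the log2 scale were the highest of the 10 genes, and the values do not show whether these genes changed.

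Summed markers of some other cells were also higher in chronic CS: for the neutrophil, lung epithelial and mesenchymal lists every chronic CS library lay above every chronic RA library, as for the CD3 sum. Ptprc was at 20.2, 15.1 and 12.4 CPM in chronic RA F, M1 and M2 and at 11.1, 24.2, 35.7, 54.3 and 23.6 CPM in chronic CS F, M1, M2, M3 and M4, where only F lay below all of chronic RA. The summed neutrophil list was at 5.19 to 14.1 CPM in chronic RA and 22.9 to 163 CPM in chronic CS, and the lung epithelial list at 242 to 497 and 1152 to 4935 CPM. The mesenchymal list was at 117 to 145 CPM in chronic RA and 204 to 334 CPM in chronic CS, and the alveolar macrophage list at 124 to 452 and 311 to 1717 CPM. The B and plasma cell list was at 45.5 to 82.8 CPM in chronic RA and 35.4 to 75.3 CPM in chronic CS. By its sum the dendritic cell list went the other way, at 253 to 268 CPM in chronic RA and 172 to 226 CPM in chronic CS. Of its 6 log2 fold changes 4 were above 0. DESeq2 called 1 marker lower in this list and 1 in the platelet list. edgeR called no gene of these lists. An unadjusted p below 0.05 was seen for 4 of 10 pan-leukocyte, 4 of 7 neutrophil, 5 of 8 epithelial, 6 of 7 mesenchymal, 5 of 10 macrophage and 0 of 10 B cell markers, and DESeq2 called 0, 2, 2, 5, 2 and 0. Per 100 Ptprc counts, Cd3e was at 6.67 to 16.4 in chronic RA and 13.0 to 25.9 in chronic CS, and Cd3d at 4.95 to 5.30 and 2.45 to 39.2. The CD3 ratios thus overlapped between the chronic groups, and the part of other cells in the values was not tested.

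The effect of CS on Cd69 differed between the time points. The acute log2 fold change exceeded the chronic one by 3.94 ± 0.51 (SE; adjusted p 0.03, edgeR interaction test), and Cd69 was the only one of the 10 genes to pass, where 0.401% of all genes passed in this direction. The difference was above 0 for all 10 genes, with a median of 2.15 over them and 0.04 over all genes, and 7 of the 10 had an unadjusted p below 0.05, as 11.9% of all genes did in either direction. For Lck it was 1.99 ± 0.56, for Gzma 3.63 ± 0.98 and for Cd3g 2.13 ± 0.71 (SE; adjusted p 0.162, 0.147 and 0.247, edgeR). Cd69 missed the threshold without acute CS F, without either acute RA library, and without chronic RA F or M2 (adjusted p 0.0569 to 0.2, edgeR), with differences of 3.72 to 4.16. Markers of other cells also differed here: edgeR called 3 of 10 pan-leukocyte markers higher and 1 of 8 lymphatic endothelial markers lower, and DESeq2 called 9 and 2. DESeq2 also called 2 or 3 markers higher in each of the B cell, macrophage, blood endothelial, mesenchymal and platelet lists. The part of other cells in the difference was not tested. Exposure time, age and pooling of mice changed together between the acute and the chronic groups and cannot be told apart.

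In RA the 10 genes did not pass the test between the time points. For chronic RA against acute RA, edgeR called 0 of the 10 genes and 0.0% of all genes, no gene of the 10 had an unadjusted p below 0.05 (7.01% of all genes had), and DESeq2 called none of them. The log2 fold changes ran from -0.67 for Cd3d to 1.10 for Gzma. Cd3g was the only gene whose RA groups did not overlap, with 2.15 to 3.04 CPM in chronic RA and 3.58 to 3.87 CPM in acute RA, while 34.7% of all genes tested had RA groups that did not overlap. A low summed level of the 10 genes was thus present in all RA libraries, although Cd8a had 0 counts in acute RA F and chronic RA M2. The sum was 24.2 to 49.3 CPM in RA, of which Lck held 8.70 to 14.9 CPM. It was 226 CPM in acute CS F, 379 CPM in acute CS M and 41.5 to 54.9 CPM in chronic CS. The part of cells other than T and NK cells in these sums was not tested.

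Per gene length, the order of the genes was similar in the RA groups. In FPKM, the acute RA means were 4.13 ± 1.59 for Nkg7, 3.35 ± 0.25 for Lck, 2.78 ± 0.67 for Gzma and 1.14 ± 0.06 for Cd3g (SD, n = 2), and the other 6 genes were below 1. In chronic RA, Gzma (5.94 ± 4.25), Nkg7 (5.08 ± 2.79) and Lck (3.82 ± 1.13; SD, n = 3) again led, and no other gene exceeded 0.765. Their SDs overlap, so the order among these 3 is not settled. In acute CS the leaders were Gzma (29.2 ± 7.08), Nkg7 (24.6 ± 3.41) and Lck (15 ± 8.56), followed by Cd69 (13.1 ± 2.88), Cd3g (12 ± 8.76), Cd3d (10.8 ± 8.28) and Cd3e (7.43 ± 5.84; SD, n = 2). Cd69 was at 0.511 FPKM and in the seventh place in acute RA, and in the fourth place in both acute CS and chronic RA. Cd8a was the lowest gene in each group but chronic CS, where Cd4 (0.265) and Cd8a (0.272) were within 1 SD of each other.

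Within acute CS, the M and the F library held different mixtures of these transcripts. The plot of CD3 chains against cytotoxic genes shows that the 3 CD3 chains summed to 137 CPM in M and 41.5 CPM in F, whereas Nkg7, Gzma and Klrd1 summed to 46.6 CPM in M and 66.4 CPM in F. Cd4 was 2.14 and Lck 2.35 times higher in M, Cd69 was 1.37 times higher in M, and Cd8a was 2.55, Klrd1 3.61, Gzma 1.41 and Nkg7 1.22 times higher in F. These ratios compare 2 libraries and carry no test, and sex is not separated from library in them. Over 19180 genes above 3 counts in both libraries the median log2 ratio of M to F was -0.01.

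**Figure D3:**
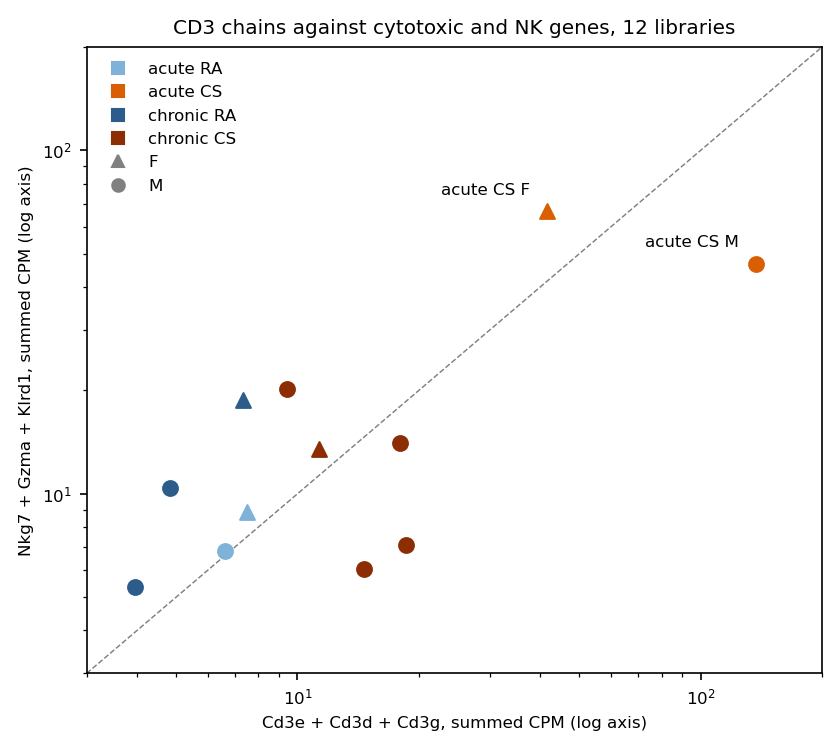
Summed CPM of Nkg7, Gzma and Klrd1 against summed CPM of the 3 CD3 chains in the 12 libraries, both on log axes, with the line of equal sums dashed; triangles are F and circles are M libraries. Acute CS M lies at 137 against 46.6 CPM, below the line, and acute CS F at 41.5 against 66.4 CPM, above it.

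Part of the T and NK cell lists beyond the 10 genes was split between the 2 libraries in the same way, again with no test. The receptor constant genes Trac and Trbc2 were 3.31 and 3.14 times higher in M, close to the CD3 chains. Ctla4, an inhibitory receptor high on regulatory T cells, was at 12.3 CPM in F and 93.4 CPM in M. Foxp3, the transcription factor that defines regulatory T cells, was at 2.81 CPM in F and 41.5 CPM in M, and Icos, a costimulatory receptor, at 11.5 CPM in F and 67.3 CPM in M. In the other direction, S1pr5, a receptor for sphingosine-1-phosphate that guides NK cells out of tissues, was at 23.3 CPM in F and 0.998 CPM in M, and Cd244a, an NK cell receptor, at 37.5 CPM in F and 4.75 CPM in M. S1pr5 and Cd244a lay at the F end of their list. Foxp3, Icos, S1pr5 and Cd244a, and Ncr1 and Klrg1 below, were chosen after their values were seen. Of the genes above 3 counts in both libraries, 49.2% of all genes were higher in M. By list this held for 10 of 11 costimulation and checkpoint genes, 11 of 15 signalling genes, 6 of 9 receptor chains, 7 of 11 transcription factors, 5 of 21 NK cell receptors and adaptors, 4 of 13 homing genes and 2 of 9 cytotoxic effectors. The lists were mixed within themselves. The transcription factors had a median log2 ratio of 0.21, with Tcf7 at 39.4 CPM in F and 21.6 CPM in M. Of the NK cell receptors, Il2rb was 3.06 times higher in M. Klrg1 was at 4.63 CPM in F and 33.4 CPM in M, and Ncr1 was nearly equal, at 13.0 and 12.9 CPM.

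**Figure D4:**
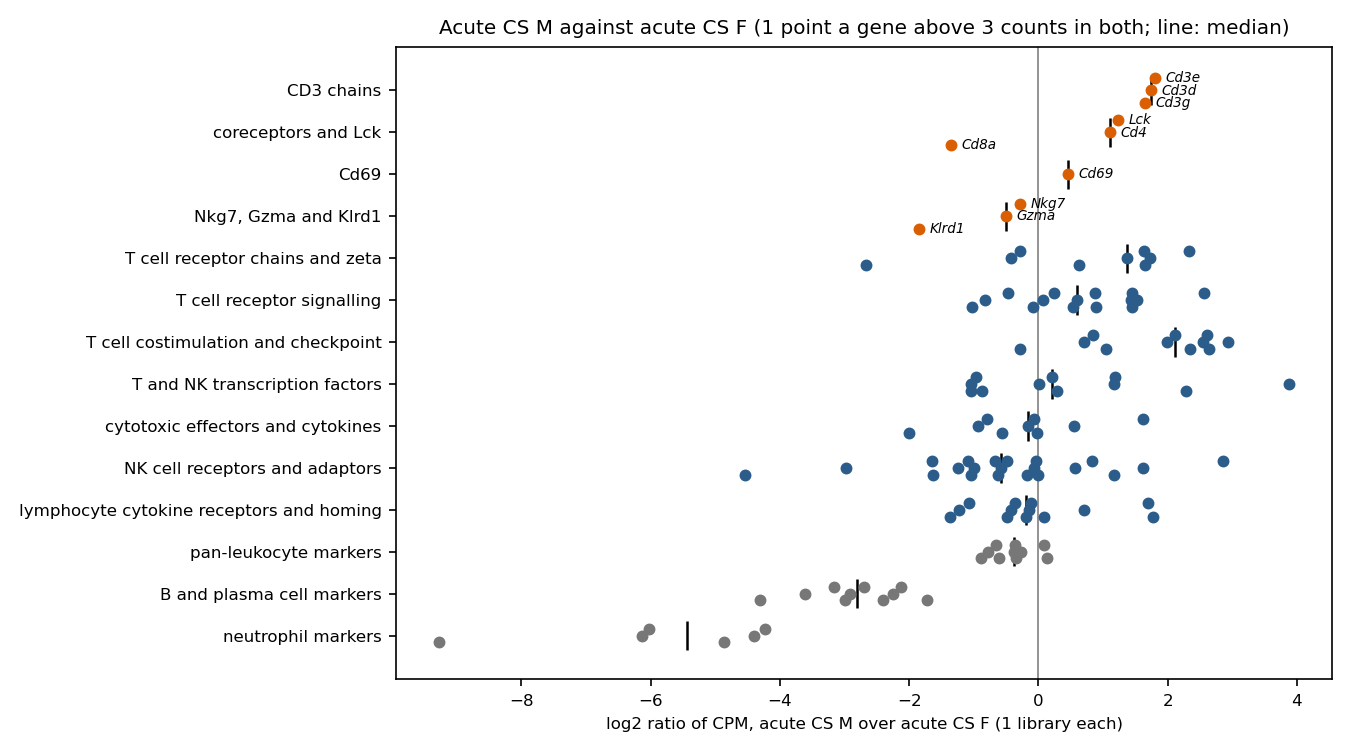
Log2 ratio of CPM between the acute CS M and the acute CS F library for each gene above 3 counts in both, by list; each point is 1 gene and the line is the list median. The CD3 chains lie between 1.65 and 1.81 and Klrd1 at -1.85, and the medians are 2.12 for costimulation and checkpoint genes, -0.58 for NK cell receptors and -2.81 for B and plasma cell markers.

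Markers of several other leukocytes were higher in acute CS, the neutrophil list only in F. The dendritic cell list was lower by its sum, at 283 and 266 CPM in acute RA F and M and 218 and 154 CPM in acute CS F and M. Of its 6 log2 fold changes 5 were above 0. Ptprc, which encodes the pan-leukocyte protein CD45, was at 19.8 and 19.6 CPM in acute RA F and M and at 285 and 154 CPM in acute CS F and M (log2 fold change 3.48, adjusted p 0.0121, edgeR). Of 10 pan-leukocyte markers 9 rose, with a median log2 fold change of 3.97, against 3.53 for the 10 T and NK cell genes. The B and plasma cell list summed to 8.79 to 23.4 CPM in acute RA, 318 CPM in acute CS F and 50.8 CPM in acute CS M, and the neutrophil list to 10.6 to 28.6, 1116 and 21.6 CPM. The alveolar macrophage list summed to 347 to 428 CPM in acute RA and 3513 to 6228 CPM in acute CS. No B cell marker of 10 and no neutrophil marker of 7 passed edgeR's test, 5 in each list had an unadjusted p below 0.05 and DESeq2 called 4 in each, and of 10 macrophage markers Cd68 and Itgax rose, where DESeq2 called 7. Their part in the values of the 10 genes was not tested.

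Set against CD45 transcripts, the 10 genes did not move alike. Per 100 Ptprc counts, Cd3e had 10.3 and 10.4 counts in acute RA F and M, and 4.74 and 30.6 in acute CS F and M. Cd69 had 15.5 and 18.2 in acute RA F and M, 25.3 and 64.0 in acute CS F and M, and it was the only gene of the 10 above both acute RA libraries in both acute CS libraries. Nkg7 had 24.3 and 14.0 in acute RA, and 8.67 and 13.2 in acute CS F and M. In acute CS F, 6 of the 10 ratios were below both acute RA libraries and 1 was above, and in acute CS M, 3 were below and 5 were above. These ratios are descriptions of single libraries.

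Transcripts of the sorted cells and of non-leukocytes also differed in acute CS. Prox1 fell, from 2239 and 2476 CPM in acute RA F and M to 1042 and 1262 CPM in acute CS F and M (log2 fold change -1.03, adjusted p 0.00797, edgeR), and of 8 lymphatic endothelial markers Prox1 and Flt4 fell, while DESeq2 called 6 lower. The list summed to 13628 to 15421 CPM in acute RA and 5952 to 9159 CPM in acute CS, and 7 of its 8 log2 fold changes were below 0. Lyve1, a surface receptor of lymphatic vessels, went the other way by its values, with 443 and 536 CPM in acute RA F and M and 568 and 986 CPM in acute CS F and M, and did not pass (adjusted p 0.307, edgeR). Pecam1, which encodes CD31, was at 770 to 800 CPM in acute RA and 1095 to 1530 CPM in acute CS, and Epcam at 0.93 and 1.51 CPM in acute RA F and M, and 16.1 and 2.30 CPM in acute CS F and M. Of 6 blood endothelial markers Aplnr, Car4, Ednrb and Sema3c rose, and of 7 mesenchymal markers Acta2, Col1a1, Col3a1, Dcn and Pdgfrb rose. The lung epithelial list summed to 8472 CPM in acute CS F, 219 CPM in acute CS M and 1035 to 1841 CPM in acute RA. The erythroid list summed to 37.7 to 69.9 CPM in acute RA, 10.6 CPM in acute CS F and 697 CPM in M. The innate lymphoid group 2 list summed to 19.8 and 19.2 CPM in acute RA F and M and to 49.5 and 110 CPM in acute CS F and M, and its 4 tested members had log2 fold changes above 0, while its cytokine genes Il5 and Il13 had 0 to 3 counts in each acute CS library. No marker rose of the dendritic cell, mast cell, platelet, erythroid, epithelial and innate lymphoid lists, although 4 innate lymphoid, 1 platelet and 1 epithelial marker had an unadjusted p below 0.05 and DESeq2 called 3, 1 and 1 of these lists as higher. The dendritic cell marker Zbtb46, which endothelial cells also express, fell.

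Among 7 further T and NK cell lists of 91 genes, 90 passed the filter (all but Lag3). Of these 20 rose after acute CS, with none lower, where 2.75% of all genes rose. The lists were also chosen with earlier results of these data known, so these shares are not an independent test. The median log2 fold change over the 90 genes was 2.97, against 0.04 over all genes. The count fell to 11 without acute CS F, 3 without acute RA F and 1 without acute RA M, and DESeq2 called 39, with Fyn and Prkcq lower. In the T cell receptor list, Trac and Trbc2, the constant parts of the alpha and beta chains, rose by log2 fold changes of 3.99 and 4.64 (adjusted p 0.00866 and 0.00971, edgeR), and the other 8 of 10 did not pass. Trac was at 2.38 and 2.86 CPM in acute RA F and M and at 19.4 and 64.1 CPM in acute CS F and M. Cd247, the zeta chain, was at 6.42 and 9.10 CPM in acute RA and at 17.7 and 27.4 CPM in acute CS (log2 fold change 1.54, adjusted p 0.0617, edgeR). Like Lck, Cd247 had a level of several CPM in every library.

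Of 15 receptor signalling genes 5 rose: Cd2, Cd6, Lat, Lcp2 and Skap1. Cd2, an adhesion receptor of T and NK cells, had 6.35 and 7.60 CPM in acute RA F and M and 57.0 and 86.4 CPM in acute CS F and M (log2 fold change 3.36, adjusted p 0.004, edgeR). The 2 genes of the list with the highest mean level were Fyn and Prkcq, and their acute log2 fold changes were -0.65 and -0.89 (adjusted p 0.0709 and 0.0643, edgeR). Fyn, a Src family kinase used by many cell types, was at 230 to 484 CPM in all 12 libraries, so the list holds genes that these LEC libraries expressed whatever their Ptprc level. Of 11 tested costimulation and checkpoint genes 4 rose, Cd27, Ctla4, Tnfrsf18 and Tnfrsf4, and Cd28, a costimulatory receptor with the highest mean level of the list, did not pass (log2 fold change 2.05, adjusted p 0.416, edgeR).

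Of 11 transcription factors 1 rose, Gata3, which directs type 2 helper and innate lymphoid cells, with 0.963 and 0.624 CPM in acute RA F and M and 28.2 and 34.5 CPM in acute CS F and M (log2 fold change 5.30, adjusted p 0.00806, edgeR). Tcf7, a factor of naive and memory T cells, had a log2 fold change of 2.53 (adjusted p 0.0531) and Satb1 one of 1.41 (adjusted p 0.254, edgeR). Of 9 cytotoxic effectors and cytokines 1 rose, the chemokine gene Ccl5 (log2 fold change 2.61, adjusted p 0.0273, edgeR). Prf1, which encodes perforin, was at 11.9 and 14.1 CPM in acute RA F and M and at 10.9 and 10.4 CPM in acute CS F and M, the reverse order of Gzma, and did not pass. Ctsw, a protease of cytotoxic cells, had a log2 fold change of 3.06 (adjusted p 0.0517, edgeR).

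Of 21 NK cell receptors and adaptors 3 rose: Il18rap, Il2rb and Tyrobp. Il2rb, the beta chain of the receptor for interleukins 2 and 15, was at 3.40 and 2.16 CPM in acute RA F and M and at 16.9 and 51.6 CPM in acute CS F and M (log2 fold change 3.62, adjusted p 0.0184, edgeR). Tyrobp, an adaptor shared with myeloid cells, was at 15.3 and 14.1 CPM in acute RA and at 227 and 106 CPM in acute CS. Fcer1g, another shared adaptor, was at 132 and 137 CPM in acute RA and at 189 and 135 CPM in acute CS and did not pass (adjusted p 0.784, edgeR). Of 13 cytokine receptor and homing genes 4 rose, among them Ccr7, Itgal and Itgb7, which steer lymphocytes and other leukocytes into tissues and lymph nodes. The list's most abundant genes, S1pr1 and Il2rg, had log2 fold changes of 0.41 and 0.53 and did not pass.

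After chronic CS none of the 90 list genes passed edgeR's test, 11 had an unadjusted p below 0.05 (Prf1 and Il2rg among them were lower), near the share of all genes, and DESeq2 called 5, Tyrobp, Lcp2, Skap1, Il7r and Itgb7, all higher. The median log2 fold change over the lists was 0.63, against 0.01 over all genes. The acute effect exceeded the chronic one for 2 list genes, Cd2 and Itgb7 (differences of 2.82 and 2.92 on the log2 scale, adjusted p 0.0406 and 0.0471, edgeR). This count was 0 without any 1 of 8 libraries: chronic RA F, M1 or M2, chronic CS M1 or M4, either acute RA library or acute CS F. It was 1 without chronic CS F.

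Variable segments of the T cell receptor gave a count of receptor gene usage that does not depend on any 1 gene. The annotation holds 144 variable segment genes, and in the plot of segments per library a segment was taken as detected at 3 or more counts. Acute RA F and M had 17 and 6 segments, and acute CS F and M had 48 and 69, at similar totals of 45237229 to 56998590 counts per library. Chronic RA F, M1 and M2 had 7, 9 and 6 segments, and chronic CS F, M1, M2, M3 and M4 had 10, 13, 8, 32 and 23. The 2 high chronic CS libraries, M3 and M4, were also the deepest of their group (47494020 and 45436986 total counts), and the part of depth in these counts was not tested. Summed CPM, which is scaled to depth, was 2.35 and 1.12 in acute RA F and M, 16.3 and 44.9 in acute CS F and M, 1.34 to 2.04 in chronic RA and 3.73 to 7.33 in chronic CS. Neither pair of CS and RA groups overlapped on this measure, which carries no test. Of single genes tested, 27.4% had every CS library above every RA library at the acute and 3.92% at the chronic time point. The chronic sums rest on 45 to 65 counts in RA and 71 to 342 counts in CS. Of single segments 23 of 144 passed the filter and edgeR called 0 of them in any comparison. An unadjusted p below 0.05 (edgeR) was seen for 9 of the 23 in the acute and 2 in the chronic comparison, where DESeq2 called 5 and 0. Among all genes 15.7% and 10.9% had such a p, so the chronic count was near the share of all genes. Some segments are near-identical copies of each other, so the split of reads among them is uncertain.

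In acute CS the detected segments came from all chain types: 27 alpha or delta, 16 beta and 5 gamma segments in F and 46, 20 and 3 in M. The largest single segment held 6.51% and 11.1% of variable segment counts in F and M, and it was Trbv3 in both. In the other libraries the largest segment held 9.36% to 38.4%, of 45 to 342 counts. The highest such share was in chronic CS M2, where Trbv1 held 38.4% of 164 counts. Over the 12 libraries the segments with the highest mean level were Trbv1, Trbv3 and Trbv13-2. Trbv3 was at 1.06 and 4.97 CPM in acute CS F and M and between 0 and 0.0864 CPM in the other 10 libraries.

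**Figure D5:**
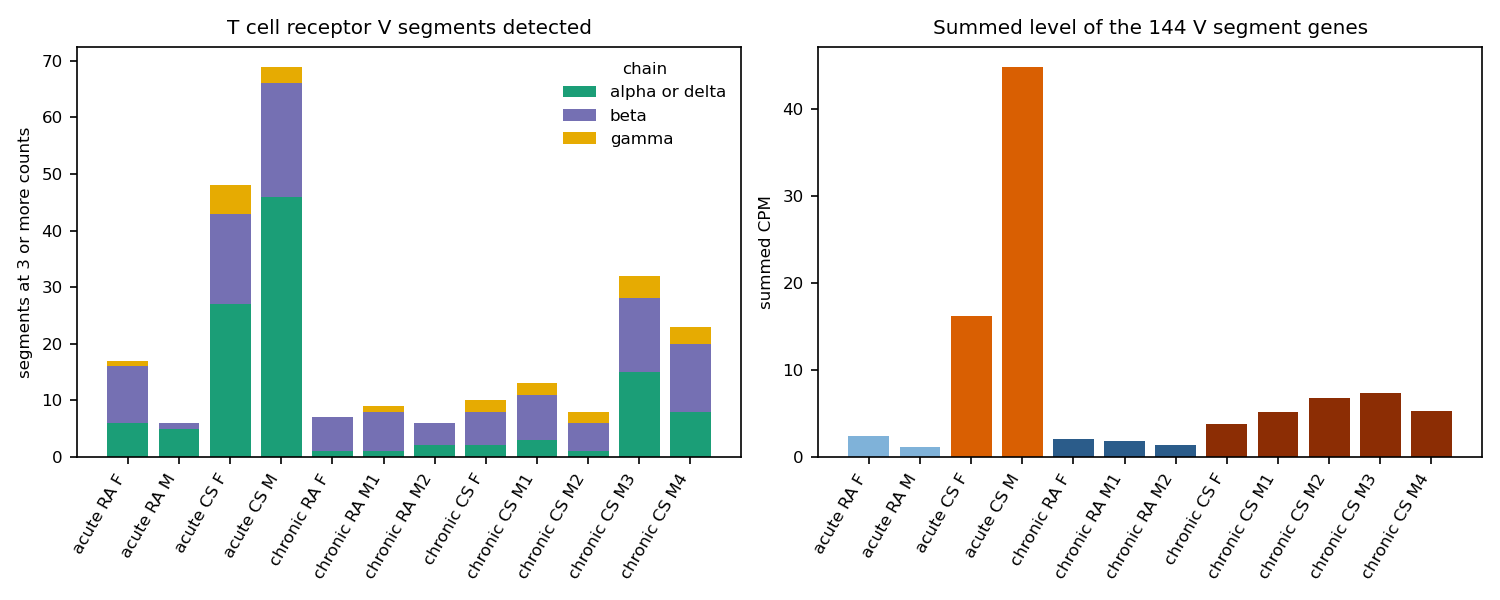
Number of T cell receptor variable segments at 3 or more counts by chain (left) and summed CPM of the 144 segment genes (right) in each of the 12 libraries, both axes from 0. Acute CS F and M reach 48 and 69 segments and 16.3 and 44.9 CPM, and the chronic CS libraries reach 8 to 32 segments and 3.73 to 7.33 CPM.

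Across the 12 libraries the 10 genes moved together, largely through the acute CS libraries. Over the 45 pairs of genes, Pearson's r of log2 CPM had a median of 0.66, and without the 2 acute CS libraries it had a median of 0.20 over 10 libraries. Cd3e and Cd69 stayed closest without acute CS, with r of 0.81 against 0.91 over all 12. Lck and Cd3g had r of 0.81 over 12 libraries and 0.02 over 10. Nkg7 and Klrd1 had r of 0.76 and 0.66, and Nkg7 and Cd3d 0.85 and 0.70. All the points share the same libraries, depths and sort, and the values are descriptions.

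The genes outside the 10 whose log2 CPM followed the mean of the 10 most closely over 12 libraries were Tigit (r = 0.96), an inhibitory receptor of T and NK cells, Map3k7cl (0.95), Net1 (0.95), Fam198b (0.95) and Mmd (0.95). Without acute CS their r fell to 0.88 for Tigit and 0.69 to 0.73 for the other 4. Tigit had mean levels of 0.0527 CPM in acute RA, 5.0 in acute CS, 0.0505 in chronic RA and 0.245 in chronic CS. It was at 0 CPM in chronic RA M2 and in chronic CS M1 and M2. Map3k7cl had a mean of 0 CPM in both RA groups, so the r of these 2 genes without acute CS includes libraries at 0. Net1 and Fam198b were abundant in all groups, with group means of 17.5 to 90.2 and 18.4 to 111 CPM. The same r was 0.84 for Ptprc over 12 libraries and 0.20 over 10, 0.82 and 0.38 for Chil3, a macrophage marker, 0.38 and 0.15 for Cd79a, a subunit of the B cell receptor, 0.39 and -0.08 for Epcam and -0.75 and 0.37 for Prox1.

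Reads of 2 of the 10 genes could overlap another gene. Cd3e shares 135 exonic bases with Gm48719 on the opposite strand, which had 5 counts over all libraries, and Lck shares 25 bases with Mir8119, which had 2. Both are small beside 28 to 2175 Cd3e counts and 151 to 2842 Lck counts per library.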

How the data were processed

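RNA was measured in 12 libraries of sorted lung LECs made with the SMART-Seq v4 kit, which does not keep strand, and Nextera XT. The authors deposited raw counts per gene for each library, made with FastQC (0.11.9 in the submitters' processing notes), Skewer, STAR on GRCm38 and its gene counting; the annotation release is not given in the sources used here. Of 52636 IDs, 52489 matched GENCODE M21, and IDs without a match held at most 0.011% of the counts of a library. Total counts per library were 18821438 to 56998590, and 3 counts were taken as the detection floor for variable segments and for ratios between libraries, which covers counting error only.

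The members and lists were chosen with earlier results of these data known. Genes were filtered with filterByExpr, scaled by TMM and fitted over all 12 libraries with edgeR's quasi-likelihood test (edgeR 4.0.16, R 4.3.3), and p-values were adjusted by Benjamini-Hochberg over 21440 genes; an adjusted p below 0.05 is a call. CS was compared with RA at each time point, the RA groups with each other, and the CS effects of the time points by an interaction term. For the RNA-seq counts the study's methods name edgeR and TMM but no test for single genes, so that design was set here. CPM used TMM library sizes, FPKM also the merged exon length, and log2 CPM a prior count of 2. Replicates are separate libraries. Beside the 10 genes, the text names the 3 most abundant genes of each list, called genes where 5 or fewer passed, sort markers, the 5 genes most like the mean of the 10 and the 3 most abundant variable segments; of the marker lists it names those that passed, and Lyve1, Il5, Il13, Chil3 and Cd79a, which were chosen after their values were seen. Some genes that this rule would name are not reported here. Alternatives were DESeq2 (1.42.0, with its own independent filtering in place of filterByExpr), scaling by library size, no filter, a fit restricted to the compared groups, a sex covariate, robust estimation, a replicate block, chronic CS subsets and leaving out each library. Chronic libraries with the same label did not vary together (r of deviations from group means -0.04 to 0.03). In the acute groups this r was 0.07. With 2 libraries a group the deviations mirror each other, so the acute value cannot decide whether the labels pair them. The main fit did not pair libraries.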

Additional observations from a re-analysis of the deposited data

Results flagged for a closer look

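The effect of CS on Cd69 differed between the acute and the chronic time point: the acute log2 fold change exceeded the chronic one by 3.94 (adjusted p 0.03, edgeR interaction test), with both acute CS libraries above both acute RA libraries and 4 of 5 chronic CS libraries above all 3 chronic RA libraries. A library that stood apart was looked for in chronic CS, the only group of 4 to 10 libraries, over 19 measures (the 10 genes, 7 lists and 2 variable segment measures), and 0 were found; about 1 in 20 such groups would be by chance.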

How the results depend on the processing

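Beside the 5 acute calls, DESeq2, library size, no filter, the sex covariate and robust estimation gave 5 to 7. A fit of only the acute groups gave 2 and the replicate block 1 (Cd69), and leaving out single libraries gave 0 to 5. The 0 chronic calls became 1 with DESeq2; leaving out libraries gave 0 to 0. The single call of the acute minus chronic effect, Cd69, became 3 with DESeq2 (Cd69, Lck and Gzma), 0 with the replicate block and 0 to 1 without single libraries. DESeq2 was run on the 32088 genes with any count, with its own filtering, so its counts differ in both the test and the genes tested. For all genes the acute count of 745 became 2009 with DESeq2, 139 with only the groups compared, 73 with the replicate block and 3 to 858 without single libraries; the chronic count of 0 became 595 with DESeq2, 10 without the filter, 16 with chronic CS M3 and M4 only, 1 with chronic CS F, M1 and M2 only and 0 to 4 without single libraries. The count of 0 for chronic RA against acute RA became 279 with DESeq2, 42 with only the groups compared and 6 without the filter. The acute minus chronic count of 97 became 979 with DESeq2, 21 with sex as a covariate, 191 without the filter, 0 with the replicate block and 0 to 263 without single libraries. For the other lists DESeq2 gave 39, 5, 3 and 20 calls in the 4 comparisons against 20, 0, 0 and 2, and leaving out libraries gave 1 to 14 in the acute and 0 to 3 in the acute minus chronic comparison. The cause was not tested otherwise.

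Of the log2 fold changes of the 10 genes, signs changed only for values that did not pass edgeR's test. In acute CS against RA no sign changed. There the values over all settings ran from 3.99 to 9.22 for Cd4, 2.66 to 9.80 for Cd8a and 0.68 to 2.53 for Klrd1. In chronic CS against RA, Cd8a was -0.060 and Gzma 0.20 and Klrd1 -0.26 with the replicate block, Gzma was 0.10 with chronic CS F, M1 and M2 only, and Cd4 was 0.40 with M3 and M4 only; leaving out single libraries gave -0.99 to 0.092 for Cd4, -0.64 to 0.46 for Gzma and -0.10 to 0.61 for Klrd1. In chronic RA against acute RA, Cd3e was -0.065 with library size, and leaving out single libraries gave -0.44 to 0.36 for Cd3e, -0.00073 to 5.21 for Cd4, -1.04 to 6.12 for Cd8a, -0.088 to 0.33 for Lck, -0.25 to 0.76 for Nkg7 and -1.02 to 0.093 for Klrd1.

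Mean variable segments per library were 11.5, 58.5, 7.33 and 17.2 in acute RA, acute CS, chronic RA and chronic CS at 3 counts, 14.0, 74.5, 14.7 and 22.4 at 1 count and 3.50, 35, 1.33 and 5.80 at 10 counts. With 2 libraries a group, an exact permutation test cannot go below 0.333, and leaving out 1 acute library leaves that group with 1, assumed to vary like the others. Cd4, Cd8a and Klrd1 had under 100 counts in most libraries outside acute CS.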
